A study of Drosophila melanogaster with 16 samples.

Results

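The genes described here encode antimicrobial peptides that Drosophila melanogaster induces through the immune deficiency (Imd) pathway. Members were chosen by name, as DptA, DptB, AttA, AttC, AttD, CecA1, CecC, Def, Dro and Mtk. The probe annotation used here paired 4 of these 10 genes with a probe set, 1 each, and these were DptB, AttD, Def and Mtk, out of 11982 annotated genes and 18952 probe sets on the array. DptA, AttA, AttC, CecA1, CecC and Dro were not analysed here. The probe sets were 1638235_at for DptB, 1631475_at for AttD, 1634271_at for Def and 1627613_at for Mtk.

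Flies lack antibodies and fight microbes with small peptides that the fat body secretes into the blood and that gut and other barrier epithelia make locally. In the Imd pathway, peptidoglycan recognition proteins sense bacterial cell wall, the adaptor Imd and a caspase and kinase cascade follow, and the NF-kappaB factor Relish (Rel) enters the nucleus and switches on the peptide genes. DptB encodes a diptericin and AttD an attacin, both glycine-rich peptides directed against Gram-negative bacteria, Def encodes the fly defensin, directed against Gram-positive bacteria, and Mtk encodes metchnikowin, a proline-rich peptide that also acts against fungi and is induced by the Toll pathway too.

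Adult flies were studied in 4 groups of 4, each array holding the RNA of 1 whole fly. For every group the age was recorded as 3 to 5 days and the duration, under CH or in room air, as 2 weeks. Whether that age refers to the start of this period or to RNA collection is not clear. CH-dmDys flies carried an RNA interference construct against dystrophin (UAS, directed at the C-terminal part) driven in all tissues by tubulin-Gal4, and were taken on a 16-day mountain climb to 6194 m (hypobaric chronic hypoxia, CH). Normoxic dmDys flies had the same genotype and stayed in room air. CH-WT flies carried the tubulin-Gal4 driver alone, called wild type, and were kept in a normobaric chamber whose oxygen followed that of the climb, between 16.3% and 9.9%, while normoxic WT flies of that line stayed in room air. Kind of exposure and genotype therefore cannot be told apart wherever CH-dmDys is set against CH-WT, or the CH response of 1 genotype against that of the other. The fly titled CH-WT replicate 3 had dmDys as its strain label, CH-dmDys replicate 5 had no strain label, CH-WT replicate 5 carried 2 different numbers, and the sources given for normoxic dmDys flies also contained CH. Groups here follow the titles.

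Values are log2 GCRMA intensities, called levels below, and a difference was called at an adjusted p under 0.05 (Benjamini-Hochberg over 18907 probe sets) and at least 2-fold. The dmDys and WT arrays had different distributions, with upper quartiles of 10.18 to 10.28 in dmDys and 8.99 to 9.09 in WT, so that comparisons between genotypes used values quantile normalized over all 16 arrays. Dystrophin itself (Dys) had 5 probe sets, none of them called lower in dmDys and 1, at quantile-normalized levels of 3.35 to 3.97 in CH-dmDys and 2.12 to 2.46 in CH-WT, called higher in CH-dmDys than in CH-WT by 1.43 (standard error 0.17, limma adjusted p = 0.00259). On the same scale the brightest was at 7.65 to 8.52 in CH-dmDys and 8.46 to 9.89 in CH-WT, and at 5.54 to 9.10 in normoxic dmDys and 8.10 to 10.41 in normoxic WT. All 8 measured egg and yolk genes were below 4 in every fly and accessory gland genes, which males express, were high in every fly. CH-WT replicate 7 and normoxic WT replicate 5 stood apart, with median levels of 10 testis genes of 2.38 and 2.23, against 11.58 to 12.19 in the other WT flies. The control transcripts of Act5C, Gapdh and eIF-4a had a 3′ minus 5′ log2 difference, a measure of RNA preservation, of 4.89 ± 0.57 in CH-dmDys and 9.53 ± 1.35 in normoxic dmDys (SD, n = 4 each, exact permutation p = 0.0286, two-sided, below which groups of 4 cannot go), and of 6.64 ± 0.80 in CH-WT and 7.57 ± 0.25 in normoxic WT (exact p = 0.0286). This measure therefore moved with CH in both genotypes, and with a middle in place of the 3′ probe set the difference in WT was -0.79 (exact p = 0.0571).

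All 4 peptide genes had their highest group mean in CH-dmDys flies. DptB, the diptericin gene, had levels of 10.59, 12.19, 11.90 and 10.31 in the 4 CH-dmDys flies, against 6.80, 8.44, 6.60 and 7.42 in the normoxic dmDys flies. Every CH-dmDys fly was above every normoxic dmDys fly. Among WT flies, 3 of the 4 under CH were below every normoxic fly, with levels of 2.17, 3.31, 2.21 and 11.04 in CH-WT and 7.53, 8.49, 8.15 and 13.20 in normoxic WT. The high CH-WT fly was replicate 7, and the high normoxic WT fly was replicate 6. Without CH-WT replicate 7 the WT groups were separate, and with it they overlapped.

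Mtk, the metchnikowin gene, was bright in all dmDys flies, at 12.51, 13.11, 13.02 and 11.24 in CH-dmDys and 10.45, 11.12, 11.86 and 10.94 in normoxic dmDys. CH-dmDys replicate 8 lay inside the normoxic range and the other 3 CH-dmDys flies lay above it. The WT flies covered a wider span, at 2.83, 5.09, 6.07 and 9.68 in CH-WT and 8.44, 7.62, 11.66 and 10.97 in normoxic WT. The highest CH-WT fly, replicate 7, was again the only one of its group inside the range of normoxic WT.

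Def, the defensin gene, varied widely among dmDys flies that had been treated alike. Its levels were 8.97, 11.71, 9.12 and 6.12 in CH-dmDys and 4.55, 7.88, 6.67 and 9.38 in normoxic dmDys. The dmDys groups overlapped along most of their range. In WT, Def stood at 2.73, 2.68, 3.18 and 6.12 in CH-WT and at 6.04, 7.19, 6.88 and 9.10 in normoxic WT, so that 3 CH-WT flies were below all normoxic WT flies and replicate 7 was just above the lowest of them.

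AttD, an attacin gene, was above the floor of the scale in few flies. It had levels of 9.55, 7.03, 3.47 and 2.09 in CH-dmDys, against 2.08 in each of the 4 normoxic dmDys flies, a value at the low end of these arrays. Replicates 5, 6 and 7 of CH-dmDys lay above the normoxic flies, while replicate 8 was at the floor with them. In WT the levels were 2.18, 2.18, 2.18 and 8.18 in CH-WT and 2.20, 2.18, 6.30 and 2.24 in normoxic WT. The only WT flies clearly above the floor were CH-WT replicate 7 and normoxic WT replicate 5, the flies in which testis transcripts were low.

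**Figure D1:**
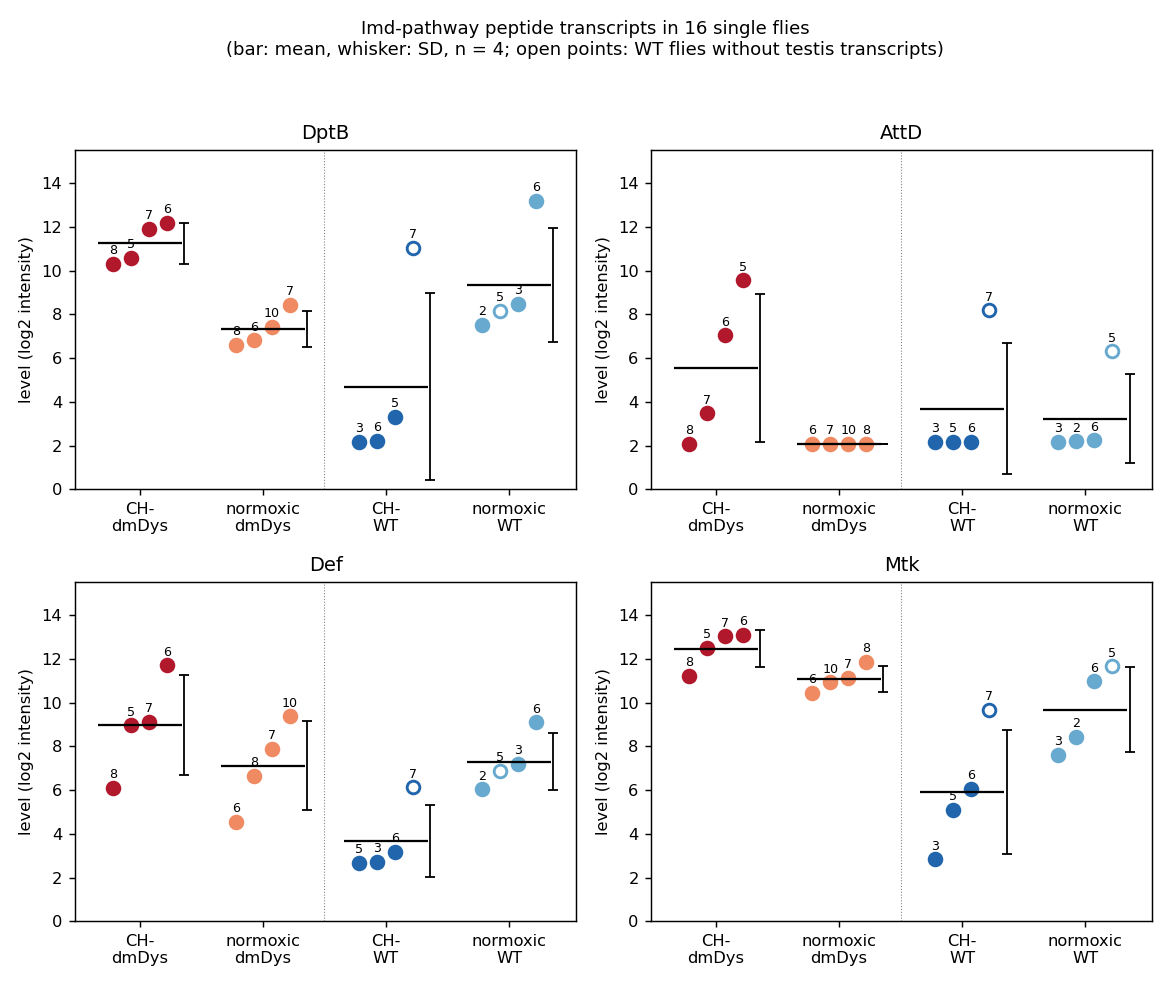
Level (log2 intensity, vertical axis) of DptB, AttD, Def and Mtk in each of the 16 flies, with groups along the horizontal axis and replicate numbers above the points; horizontal bars are means, whiskers SD (n = 4), and open points are the WT flies with low testis transcripts. The 4 CH-dmDys flies have DptB levels of 10.31 to 12.19, all above the 6.60 to 8.44 of the normoxic dmDys flies, and in CH-WT replicate 7 is the highest fly in all 4 panels.

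Individual flies tended to be high or low for several peptides at once. CH-WT replicate 7 was the highest of its group for 4 of 4 genes. CH-dmDys replicate 8 was the lowest of its group for 4 of 4 genes, and CH-dmDys replicate 6 the highest for 3 of 4, all but AttD. Among normoxic flies no such fly stood out in dmDys, where the highest fly was replicate 7 for DptB, replicate 10 for Def and replicate 8 for Mtk, whereas in normoxic WT replicate 6 was the highest for DptB and Def and replicate 5 for AttD and Mtk. After centring each genotype, the Pearson correlation of single genes with the mean of the 4 was 0.91 for DptB, 0.91 for Mtk, 0.88 for Def and 0.70 for AttD over the 16 flies. This is a description in which each gene is part of the mean. Differences between CH and normoxic groups were not removed, so they enter these values beside the differences between flies of a group.

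The group means of DptB were 11.25 ± 0.94 in CH-dmDys, 7.32 ± 0.83 in normoxic dmDys, 4.68 ± 4.27 in CH-WT and 9.34 ± 2.60 in normoxic WT (mean ± SD, n = 4 each here and below). From high to low the order was CH-dmDys, normoxic WT, normoxic dmDys and CH-WT, and each group overlapped its neighbour in that order. Def had means of 8.98 ± 2.29 in CH-dmDys, 7.12 ± 2.04 in normoxic dmDys, 3.68 ± 1.64 in CH-WT and 7.30 ± 1.30 in normoxic WT, the same order, again with overlap between neighbours. Mtk had means of 12.47 ± 0.86 in CH-dmDys, 11.09 ± 0.59 in normoxic dmDys, 5.92 ± 2.85 in CH-WT and 9.67 ± 1.95 in normoxic WT. Here normoxic dmDys came second and normoxic WT after it, and neighbours overlapped as well. AttD had means of 5.54 ± 3.39 in CH-dmDys, 2.08 in normoxic dmDys, 3.68 ± 3.00 in CH-WT and 3.23 ± 2.05 in normoxic WT, with most flies at the floor. CH-dmDys had the highest mean for all 4 genes, and CH-WT the lowest for 3 of them, all but AttD. These levels come from the deposited values, whose distributions differed between dmDys and WT.

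The first comparison put CH-dmDys beside normoxic dmDys, for the response to the mountain exposure. Travel, low pressure and any change in temperature or humidity on the climb went with low oxygen and cannot be told apart from it. DptB was higher in CH-dmDys by 3.94 on the log2 scale (standard error 0.61, 95% interval 2.47 to 5.40, limma adjusted p = 0.00841), a 15.3-fold difference, and was the 1 member called of 4. For comparison, 9.53% of all probe sets were called in this contrast and 5.46% of all were called higher. Mtk had a difference of 1.38 (standard error 0.51, interval 0.15 to 2.61) with an unadjusted p of 0.0332 and a limma adjusted p of 0.116. AttD had a difference of 3.46 (standard error 1.65, adjusted p = 0.22) and Def of 1.86 (standard error 1.49, adjusted p = 0.537), with intervals that included 0. All 4 differences were positive, with a median of 2.66, while the median over all probe sets was 0. The groups did not overlap for DptB, nor, if the values at the floor are taken as they stand, for AttD, and 13.9% of all probe sets had every CH-dmDys fly above every normoxic dmDys fly.

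CH and RNA preservation cannot be told apart in this contrast, because the 3′ minus 5′ difference did not overlap between CH-dmDys (4.45 to 5.73) and normoxic dmDys flies (7.55 to 10.52). With that difference as a covariate no member was called, with DptB at 4.96 (limma adjusted p = 0.699), AttD at 6.30, Def at 1.96 and Mtk turned to -0.04 (adjusted p = 1 each for these 3). DptB was also not called in 1 fit over all 16 flies (adjusted p = 0.307). Leaving out each fly in turn kept DptB called, at 3.62 to 4.31. Without CH-dmDys replicate 8 Mtk was called too, at 1.79 (adjusted p = 0.0382).

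The second comparison put CH-WT beside normoxic WT, for the response to hypoxia at normal pressure. No probe set of 18907 was called, and limma gave 232 (1.23%) an unadjusted p under 0.05, among them Def. Def had a difference of -3.62 (standard error 1.02, interval -6.07 to -1.18, unadjusted p = 0.0106, adjusted p = 1). DptB had a difference of -4.66 (standard error 2.42, interval -10.50 to 1.19, adjusted p = 1) and Mtk of -3.75 (standard error 1.67, interval -7.79 to 0.28, adjusted p = 1). AttD had one of 0.45 (standard error 1.76, interval -3.80 to 4.70, adjusted p = 1). None passed the test. Counted by size alone from the most negative, DptB was at position 3, Mtk at 5 and Def at 6 of the 18907 differences. Such a ranking takes no account of spread, and genes with a wide spread tend towards its ends. The SD of DptB was 4.27 in CH-WT and 2.60 in normoxic WT. The median of the members was -3.69, and that of all probe sets was -0.002.

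CH-WT replicate 7 stood apart from the rest of its group. Without it the differences were -6.77 for DptB, -4.44 for Def and -5.01 for Mtk, each with a limma adjusted p of 0.871, and AttD turned to -1.05. In that set of 3 CH-WT flies against 4 normoxic WT flies, the groups no longer overlapped for DptB, Def and Mtk, 3 of 4 members, while 1.39% of all probe sets had every CH-WT fly below every normoxic WT fly. With all 8 flies, 0 of 4 members and 0.397% of probe sets were separated in this direction. Replicate 7 was the highest CH-WT fly for all 4 genes, so the separation without it follows from its omission and is no test. The fly left out was 1 of the pair with low testis transcripts, and the other, normoxic WT replicate 5, was kept. The 3′ minus 5′ difference of CH-WT replicate 7 was 5.45, against 6.94 to 7.20 in the other CH-WT flies. Its median level of the blood cell genes was 5.86, against 2.19 to 2.22 in those flies. Normoxic dmDys replicate 8 also had the highest blood cell median of its group, 10.45 against 6.8 to 7.2. Its 3′ minus 5′ difference, 7.55 against 9.84 to 10.52, was the lowest of that group. Its DptB level, 6.60, was the lowest there, its Def level, 6.67, lay within the range, and its Mtk level, 11.86, was the highest. The relation of these traits to the peptide levels was not tested.

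Fat body and blood cells are sources of these peptides, and genes listed as their markers were measured in the same flies. The fat body genes did not move together, so their median is not a measure of the amount of fat body. The fat body list (Fbp1, Fbp2, Lsp2 and apolpp) had median levels per fly of 4.55 to 12.55 in CH-WT and 3.35 to 5.11 in normoxic WT, and a log2 summed intensity of 13.46 to 15.29 in CH-WT and 13.36 to 13.76 in normoxic WT. Fbp1 and Fbp2 were below 4 in every normoxic WT fly. In CH-WT against normoxic WT Fbp2 differed by 6.70 (standard error 2.17, unadjusted p = 0.02), Fbp1 by 5.71 (standard error 1.90, unadjusted p = 0.0223) and Lsp2 by 5.15 (standard error 1.73, unadjusted p = 0.023), and apolpp, a lipoprotein gene of the adult fat body, by 0.16 (standard error 0.30), each with a limma adjusted p of 1. Counted by size alone from the most positive of the 18907 differences, Fbp2 was at position 1, Fbp1 at 4 and Lsp2 at 5, at the other end from DptB, Mtk and Def. Fly by fly, CH-WT replicates 3, 5, 6 and 7 had fat body medians of 11.84, 12.11, 4.55 and 12.55. Their DptB levels were 2.17, 3.31, 2.21 and 11.04, so the fly with the highest fat body median also had the highest DptB. In dmDys the fat body list was at 2.69 to 3.14 under CH and 2.08 to 2.09 in normoxia, and its sum at 14.12 to 14.53 in CH-dmDys and 14.15 to 14.63 in normoxic dmDys. Fbp1 and Fbp2 were below 4 in all 8 dmDys flies, and Lsp2 was called higher under CH at 1.72 (standard error 0.20, adjusted p = 0.00351). The Lsp2 means were low, at 3.81 in CH-dmDys and 2.09, near the floor, in normoxic dmDys. The difference of apolpp in dmDys was -0.08 (limma adjusted p = 0.939). Of 7 blood cell genes, NimC1, a phagocytosis receptor, was called higher in CH-dmDys at 6.45 (standard error 0.26, adjusted p = 0.000131), and the other 6 were not called, at -0.80 for PPO2, -0.13 for PPO1, 0.15 for crq, 0.28 for He, 0.35 for Hml and 0.53 for eater. The summed list was at 12.30 to 12.60 in CH-dmDys and 12.00 to 13.08 in normoxic dmDys. Its members eater and He were below 4 in every dmDys fly and NimC1 in every normoxic dmDys fly. In WT the summed blood cell list was at 9.34 to 12.02 in CH-WT and 10.08 to 11.73 in normoxic WT, with PPO1 below 4 in every WT fly, and Hml, NimC1, eater and He below 4 in every normoxic WT fly. Markers also differed between genotypes. In CH-dmDys against CH-WT, Hml at 6.35 (adjusted p = 0.0118) and PPO1 at 5.44 (adjusted p = 2.89e-05) were called higher and Lsp2 at -8.37 (adjusted p = 0.0129) lower, and in normoxic dmDys against normoxic WT the same 3 genes were called, Hml at 6.00, PPO1 at 5.71 and Lsp2 at -4.87 (adjusted p = 0.00046, 0.00402 and 0.00446). The other genes of both lists were not called, while 12.3% of all probe sets were under CH and 8.07% in normoxia. Over the 11 genes of both lists, 4 differences were positive and 7 negative under CH, with a median of -0.20. In normoxia 7 were positive and 4 negative, with a median of 0.08. The part of these transcripts in the peptide levels was not tested, and in whole flies fewer cells of a type and less RNA per cell cannot be told apart.

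The CH response of dmDys minus that of WT was positive for all 4 genes, and none passed the test. It was 8.59 for DptB (standard error 2.54, interval 3.08 to 14.10, unadjusted p = 0.00519, limma adjusted p = 0.194), 5.48 for Def (standard error 1.83, interval 1.52 to 9.45, adjusted p = 0.282), 5.13 for Mtk (standard error 1.78, interval 1.28 to 8.99, adjusted p = 0.312) and 3.01 for AttD (standard error 2.45, interval -2.31 to 8.32, adjusted p = 0.931). Of all probe sets, 0.894% were called and 8.13% had an unadjusted p under 0.05, against 0 of 4 and 3 of 4 members. By size alone, without regard to spread, DptB stood at position 4 of 18907 from the most positive. Without CH-WT replicate 7, DptB at 10.71 (adjusted p = 0.00535) and Mtk at 6.39 (adjusted p = 0.0421) were called, and without both WT flies low in testis transcripts DptB at 11.11 (adjusted p = 0.00425) and Mtk at 5.73 (adjusted p = 0.0322) were called as well. Replicate 7 was the highest CH-WT fly for all 4 genes, so the calls without it use the same values and are no separate support. The differences rest on the 2 comparisons above and share their flies with them.

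**Figure D2:**
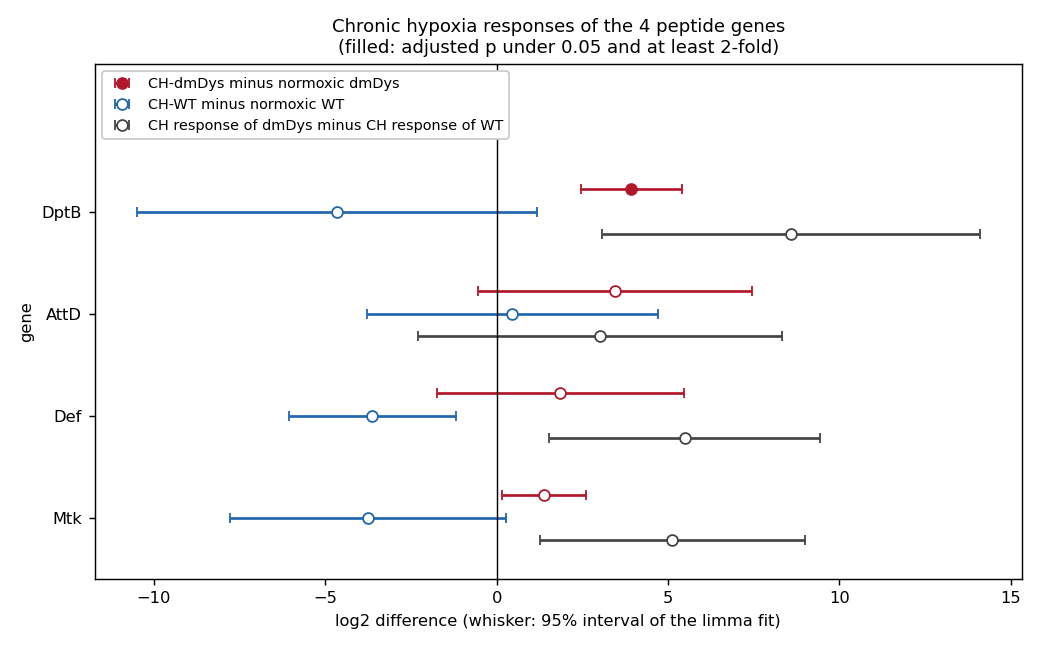
Log2 differences (horizontal axis, whiskers 95% intervals of the limma fit) of DptB, AttD, Def and Mtk for CH-dmDys minus normoxic dmDys, CH-WT minus normoxic WT, and the first minus the second; filled points were called. Only DptB in dmDys, at 3.94, is filled, and for DptB, Def and Mtk the dmDys point lies right of 0 and the WT point left of it.

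Between genotypes in room air, none of the 4 members was called, while 8.07% of probe sets were. After quantile normalization the difference of normoxic dmDys from normoxic WT was -2.94 for DptB (standard error 1.29, interval -6.05 to 0.17, limma adjusted p = 0.186), -1.30 for AttD (standard error 1.23, adjusted p = 0.538), -1.12 for Def (standard error 1.16, adjusted p = 0.554) and 0.41 for Mtk (standard error 1.00, adjusted p = 0.759). At an unadjusted p under 0.05 there were also 0 of 4, against 30.6% of all probe sets.

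Under hypoxia, Mtk was higher in CH-dmDys than in CH-WT by 5.80 (standard error 1.58, interval 1.98 to 9.61, limma adjusted p = 0.0429), and was the 1 member called of 4, where 12.3% of all probe sets were called and 4.51% of all were called higher. Its quantile-normalized levels were 12.02, 12.62, 12.54 and 10.61 in CH-dmDys and 2.83, 5.18, 6.32 and 10.27 in CH-WT. The groups were separate, with CH-dmDys replicate 8 and CH-WT replicate 7 next to each other, and 13.6% of all probe sets were separate in that direction. DptB differed by 5.89 (standard error 2.26, interval 0.43 to 11.35, adjusted p = 0.118), Def by 4.45 (standard error 1.54, adjusted p = 0.0883) and AttD by 1.42 (standard error 2.24, adjusted p = 0.657). Without CH-WT replicate 7, DptB at 8.15 (adjusted p = 0.000429), Def at 5.55 (adjusted p = 0.0202) and Mtk at 7.17 (adjusted p = 0.00318) were called, and leaving out any other fly ended the call of Mtk (adjusted p = 0.0791 to 0.117). Replicate 7 was the highest CH-WT fly for all 4 genes, so the calls without it are no separate support. With the 3′ minus 5′ difference as a covariate no member was called: Mtk was at 1.59 (adjusted p = 0.586) and Def at 0.98, and DptB turned to -1.12 and AttD to -1.29. A floor at 4 also ended the call of Mtk (5.50, adjusted p = 0.0596). Hml and PPO1 of the blood cell list were called higher in the same contrast and Lsp2 of the fat body list lower, with the values given above. The other genes of both lists were not called.

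The rest of the Imd pathway gives the setting of these peptide levels. Of 32 further genes listed, 24 had a probe set of their own. In CH-dmDys against normoxic dmDys 3 were called higher and 2 lower, beside 9.53% of all probe sets called in either direction. Their median difference was 0.20, against 0 over all probe sets. In CH-WT against normoxic WT 0 of 24 were called and 0 had an unadjusted limma p under 0.05, with a median of -0.07, and 0 of 24 were called for the difference between the CH responses.

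Among recognition proteins, PGRP-SB1, a secreted peptidoglycan amidase, was called higher in CH-dmDys, at 2.91 (standard error 0.55, limma adjusted p = 0.0153). Its levels were 12.44, 13.29, 13.39 and 11.87 in CH-dmDys and 9.44, 9.36, 11.15 and 9.41 in normoxic dmDys, without overlap. In WT it was at 6.84, 8.81, 6.68 and 12.06 in CH-WT and 6.74, 7.78, 10.09 and 11.94 in normoxic WT, with CH-WT replicate 7 the highest of all WT flies. PGRP-LA, a membrane protein of the recognition family, was called higher in CH-dmDys at 1.30 (standard error 0.16, adjusted p = 0.00446), with 11.45 to 11.88 in CH-dmDys and 10.17 to 10.78 in normoxic dmDys. The intracellular sensor PGRP-LE was at 0.02 (standard error 0.14, adjusted p = 1).

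Of 11 signalling components, key, the regulatory subunit of the kinase complex that acts on Relish, was called higher in CH-dmDys at 1.66 (standard error 0.19, limma adjusted p = 0.00371). Its levels were 11.08 to 11.62 in CH-dmDys and 9.30 to 9.97 in normoxic dmDys. The adaptor imd had a difference of 0.29 (standard error 0.15, adjusted p = 0.263), and Rel, the transcription factor, 0.21 (standard error 0.18, adjusted p = 0.566). Rel was at 12.14 to 12.74 in CH-dmDys and 11.83 to 12.44 in normoxic dmDys, and at 10.48 to 12.05 in CH-WT and 10.82 to 11.93 in normoxic WT, so that both pairs of groups overlapped. Dredd, the caspase that processes Relish, had a difference of -0.63 (standard error 0.12, adjusted p = 0.0136), under the 2-fold threshold.

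Both genes called lower in CH-dmDys hold the pathway back in flies, while the other negative regulators measured were not called in either direction. The relation of pirk and PGRP-SC2 to the peptide levels was not tested. Pirk, which keeps receptors from signalling, differed by -1.36 (standard error 0.22, limma adjusted p = 0.00899), with levels of 9.75, 9.42, 9.43 and 9.43 in CH-dmDys against 10.84, 11.34, 10.93 and 10.34 in normoxic dmDys. PGRP-SC2, an amidase of the gut that breaks down peptidoglycan, differed by -4.23 (standard error 1.13, adjusted p = 0.0447), with 3.63, 8.81, 7.44 and 6.84 in CH-dmDys against 11.58, 10.10, 11.47 and 10.48 in normoxic dmDys. The call of PGRP-SC2 was lost when any of 6 of the 8 flies was left out, and those of the other 4 genes were kept. The remaining negative regulators included PGRP-LB at 0.06 (standard error 0.58, adjusted p = 1), PGRP-LF at 0.93 (standard error 0.33, adjusted p = 0.105) and CYLD at 0.85 (standard error 0.19, adjusted p = 0.0268, below the 2-fold threshold). With the 3′ minus 5′ difference as a covariate none of the 5 was called. PGRP-LA was then at 1.24, key at 1.20 and pirk at -1.03, while PGRP-SB1 was at 0.16 and PGRP-SC2 at -7.98.

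**Figure D3:**
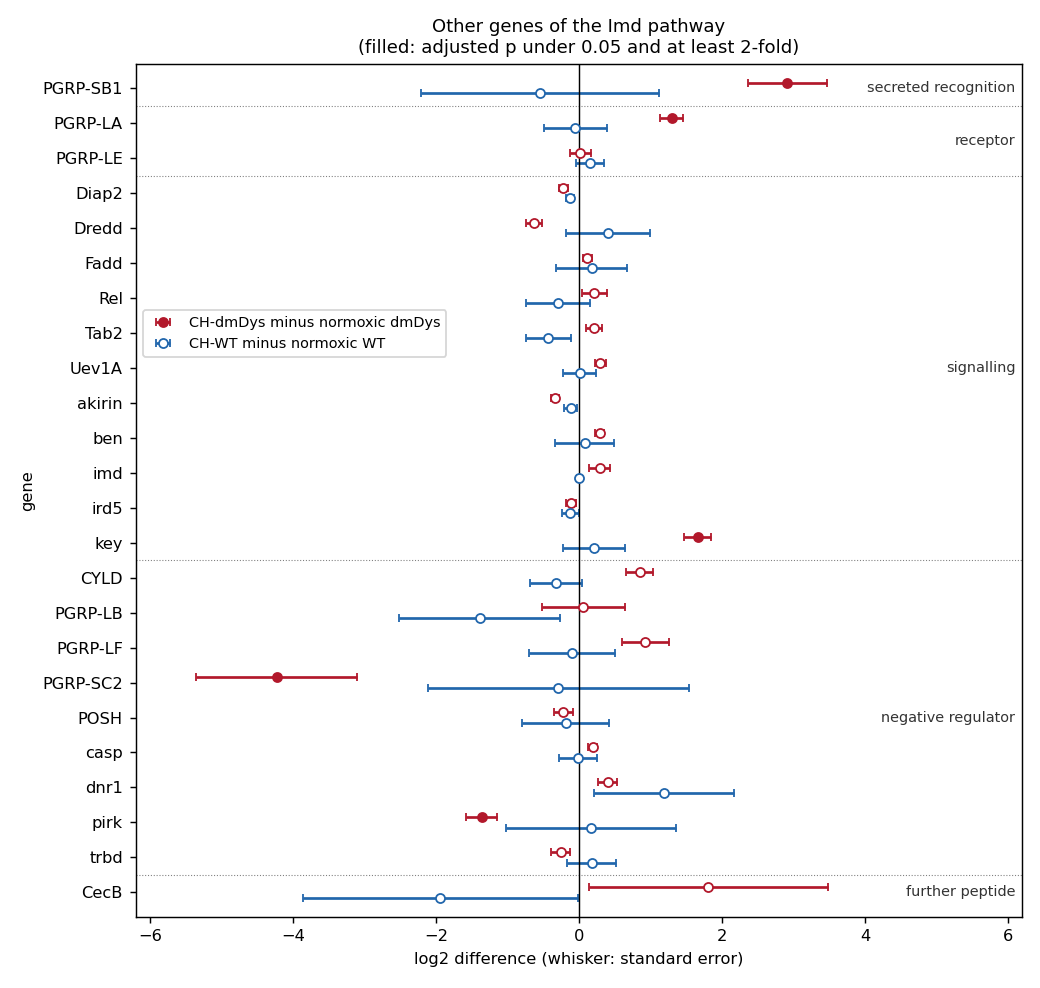
Log2 differences (horizontal axis, whiskers standard errors) of 24 further genes of the Imd pathway, grouped by role down the page, for CH-dmDys minus normoxic dmDys and CH-WT minus normoxic WT; filled points were called. In dmDys PGRP-SB1 (2.91), key (1.66) and PGRP-LA (1.30) are filled on the right and pirk (-1.36) and PGRP-SC2 (-4.23) on the left, and in WT no point is filled.

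Between genotypes under hypoxia, key at 1.47 (standard error 0.35, limma adjusted p = 0.0274), PGRP-LF, a receptor-like inhibitor, at 3.06 (standard error 0.76, adjusted p = 0.0323), and CYLD, a deubiquitinase, at 1.40 (standard error 0.19, adjusted p = 0.00371) were called higher in CH-dmDys than in CH-WT. These were 3 of 24, beside 4.51% of all probe sets called higher, and none was called lower. Between normoxic dmDys and normoxic WT 0 of 24 were called, beside 8.07% of all probe sets.

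CecB, a cecropin gene that Imd also controls and that was not among the 10 chosen, was near the floor in most flies. Its levels were 2.08, 9.06, 2.39 and 2.10 in CH-dmDys and 2.08 to 2.11 in normoxic dmDys, and 2.17, 2.16, 2.16 and 4.42 in CH-WT and 2.89, 2.28, 3.17 and 10.33 in normoxic WT. The bright flies, CH-dmDys replicate 6 and normoxic WT replicate 6, were also the highest of their groups for DptB and Def. Its difference in dmDys was 1.81 (standard error 1.67, limma adjusted p = 0.627).

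**Figure D4:**
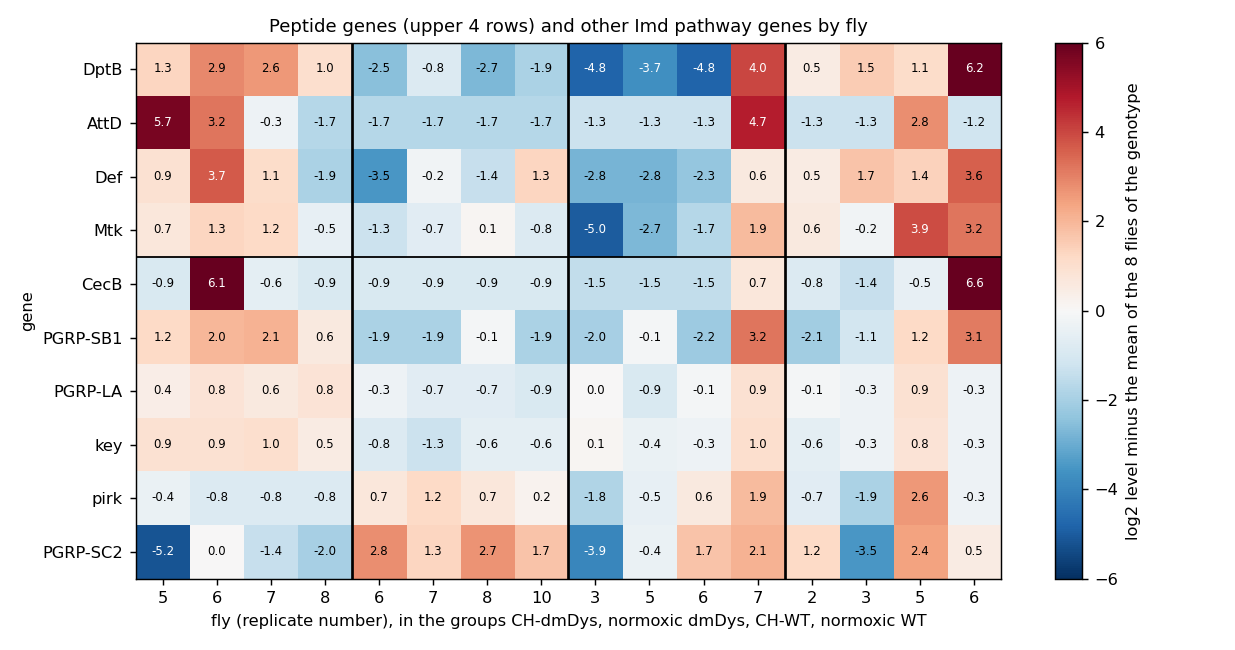
Log2 level minus the mean of the 8 flies of the same genotype (colour scale, value in each cell) for the 4 peptide genes, CecB and the 5 pathway genes called in CH-dmDys, with the 16 flies along the horizontal axis, dmDys on the left and WT on the right, each with CH flies before normoxic flies. DptB is above the genotype mean in all 4 CH-dmDys flies and below it in 3 of 4 CH-WT flies, the exception being replicate 7.

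The Toll pathway, the other induced arm of fly immunity, had 14 of 21 listed genes with a probe set. Of its outputs, the antifungal peptide gene Drs was at 11.99, 12.68, 11.44 and 10.85 in CH-dmDys and 10.01, 12.10, 11.89 and 11.53 in normoxic dmDys. The groups overlapped, with a difference of 0.36 (standard error 0.60, limma adjusted p = 0.955), and in CH-WT against normoxic WT it was 0.53 (standard error 0.70, adjusted p = 1). IM2, which encodes a short secreted immune peptide, had differences of 0.13 in dmDys (standard error 0.14, adjusted p = 0.699) and 0.48 in WT (standard error 0.28, adjusted p = 1). In dmDys 2 of the 14 were called higher under CH, the adaptor tub at 1.35 (standard error 0.32, adjusted p = 0.0314) and the kinase pll at 1.86 (standard error 0.40, adjusted p = 0.0228), and none lower, beside 5.46% of all probe sets called higher and 9.53% called in either direction. In WT 0 of 14 were called, as for all probe sets, and 1, the protease gene SPE at 1.51, had an unadjusted p under 0.05, beside 1.23% of all probe sets.

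The genes whose levels went most closely with the mean of the 4 peptides over the 16 flies, each genotype centred, were salt (r = 0.79), CG42822 (r = 0.79), CG32284 (r = 0.79), PGRP-SB1 (r = 0.79) and Fatp2 (r = 0.79) among 13643 probe sets of 1 gene each. Their Spearman coefficients were 0.72 for salt, 0.78 for CG42822, 0.77 for CG32284, 0.73 for PGRP-SB1 and 0.86 for Fatp2. CG42822 was low in every fly, at 3.02 to 4.64. Fatp2 overlapped between CH-dmDys, at 7.52 to 7.99, and normoxic dmDys, at 7.49 to 7.91. Flies of a group share their exposure and have similar RNA preservation, so the points are not independent of these. PGRP-SB1 was the only gene of the Imd list among the 5.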

How the data were processed

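Single whole flies were profiled on Affymetrix Drosophila Genome 2.0 arrays after amplification of total RNA. The authors deposited GCRMA intensities, linear values that were background-corrected, normalized and summarized per probe set, and distributions showed that dmDys and WT arrays were not on 1 scale. Values were taken to log2 with no offset. The tables held 18952 probe sets, and 18907 were tested once 45 spiked-in controls had been removed. Probe sets were named from the platform annotation, where 13647 had 1 gene symbol, 402 several and 4903 none, and genes with several probe sets are given by the brightest. limma 3.58.1 (lmFit, eBayes) in R 4.3.3 was fitted to the 8 flies of each genotype for CH and to all 16 flies for the difference between CH responses, on the deposited values. Genotype comparisons used quantile-normalized values. P-values measure the spread between single flies, and the number of arrays, 4 a group, limits the precision. All members are described, further pathway genes where called and otherwise by size within a role, and likeness by the 5 highest correlations. Members and lists were chosen with earlier results of these data known. The significance analysis named in the study's methods was not run. Fits were tested on simulated data, and the alternatives were other scalings, filters, moderation, covariates, blocks and omission of flies.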

Additional observations from a re-analysis of the deposited data

Results flagged for a closer look

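Among 40 groups of 4 flies examined for 10 genes (the 4 members, CecB and the 5 pathway genes called in CH-dmDys), 10 held 1 fly far from the other 3, by Dixon's ratio of gap to range past its critical value. For independent, normally distributed values chance sets a fly apart in about 1 group in 20. Here AttD and CecB were near the floor in most flies, and groups of different genes share flies. The count of 10 therefore cannot be set against that rate. CH-WT replicate 7 was that fly in 4 groups. It had DptB at 11.04 beside 2.17 to 3.31 in the other CH-WT flies, AttD at 8.18 beside 2.18, Def at 6.12 beside 2.68 to 3.18, and CecB at 4.42 beside 2.16 to 2.17. Normoxic WT replicate 6 had DptB at 13.20 beside 7.53 to 8.49 and CecB at 10.33 beside 2.28 to 3.17. Normoxic WT replicate 5 had AttD at 6.30 beside 2.18 to 2.24. In CH-dmDys, replicate 6 had CecB at 9.06 beside 2.08 to 2.39 and replicate 5 had pirk at 9.75 beside 9.42 to 9.43. Normoxic dmDys replicate 8 had PGRP-SB1 at 11.15 beside 9.36 to 9.44.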

How the results depend on the processing

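Of 436 values of a member under an alternative, 397 kept direction and side of the threshold, 8 reversed and 31 changed side. Where 1 member, DptB, was called in CH-dmDys against normoxic dmDys, 1 fit over all groups and the 3′ minus 5′ covariate called 0, bright probe sets only called 2 (DptB and Mtk) and omission of single flies 1 to 2. The covariate turned Mtk to -0.04, and it called 0 of the 5 other pathway genes and 9 of all 18907 probe sets. Omission of single flies called 4 to 5 of those pathway genes, an alternative chosen after seeing the data, as was their covariate fit. For the difference between CH responses 0 members were called, 0 to 2 with single flies left out and 2 without both WT flies low in testis transcripts. In CH-WT against normoxic WT 0 were called under every alternative run, and AttD turned to -3.16 with the covariate, -1.39 with the replicate block, -0.025 without both of those flies and, over single flies left out, ranged from -1.05 (without CH-WT replicate 7) to 1.48. For normoxic dmDys against normoxic WT Mtk ranged from -0.30 (without normoxic WT replicate 3) to 1.07 over single flies left out. In CH-dmDys against CH-WT, where Mtk was called, 3 members were called with the deposited values, 1 fit over all groups, array weights or both of those WT flies left out, 2 with median centring or trended robust moderation, 0 with a floor at 4 or the covariate, and 0 to 3 with single flies left out. The covariate turned DptB to -1.12 and AttD to -1.29 there. In WT the middle minus 5′ difference was -0.79. The causes were not tested. AttD near the floor limits its differences, and each member has 1 probe set, so a choice among probe sets could not be tried.

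Replicate numbers were shared by some flies of different groups, and in no comparison did every same-numbered pair deviate together: the correlations were -0.19, -0.03 and 0.11 in dmDys, 0.67, -0.88 and 0.61 in WT, and -0.10, 0.13 and -0.12 under CH. With the replicate block, fitted on the flies with a shared number, 0 members were called in dmDys (DptB 4.19, adjusted p = 0.145, 12 of all probe sets called), 0 in WT, 0 for the difference between responses (DptB 11.57, adjusted p = 0.253) and 0 in CH-dmDys against CH-WT (Mtk 5.13, adjusted p = 0.365). No block was possible in normoxia between genotypes, where 1 number was shared.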
